A study of Mus musculus with 18 samples.

Results

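The genes of autophagy and of the lysosome were followed across the striatum of 4 genotypes of mice. They comprise 44 genes, taken as the rows of the deposited counts whose Ensembl identifier maps to a fixed set of gene symbols, out of 55421 genes listed, and 43 of the 44 were among the 20914 genes with enough counts to test. RNA was sequenced from whole striatum, 1 library per mouse, of 5 WT, 5 zQ175, 3 CK2a'(+/-) and 5 zQ175:CK2a'(+/-) mice, which the labels place on C57BL/6 at 12 to 14 months of age. zQ175 is a knock-in model of Huntington's disease (HD) in which the endogenous huntingtin gene carries an expanded CAG repeat, so every cell that uses that gene makes the mutant protein. CK2a'(+/-) mice carry 1 functional copy of Csnk2a2, which encodes the catalytic subunit CK2α' of protein kinase CK2. By the study's methods that line came from a mixed 129/SvEv and C57BL/6 stock and was bred to the WT and zQ175 mice over many generations before the founders were chosen, and all mice used had a C57BL/6J background. The comparisons ask which of these genes differ in zQ175 mice, and whether they differ less when CK2α' is reduced. Total counts per library ranged from 13612381 to 22702547. Levels are given as CPM, the counts relative to library size after scaling the libraries by the trimmed mean of M-values (TMM), and all log2 fold changes, standard errors (SE) and adjusted p (FDR) come from edgeR's quasi-likelihood test across all genes tested, with a gene taken as passed at an FDR under 0.1.

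Macroautophagy encloses cytoplasm in a double membrane and delivers it to the lysosome. A kinase complex around ULK1 starts the process, a lipid kinase complex around VPS34 and Beclin 1 marks the site, ATG9 vesicles and ATG2 lipid transfer feed the membrane, and a conjugation machinery attaches ATG8 proteins (LC3 and GABARAP) to it, where receptors such as p62 bring in cargo. The lysosome then degrades the cargo with acid hydrolases, the cathepsins among them, and TFEB and TFE3 activate many lysosomal genes through E-box motifs, a module that is studied in HD because mutant huntingtin aggregates are an autophagy cargo.

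TFEB and TFE3 bind the letters CACGTG, with the wider TCACGTGA as the core of the element known from lysosomal promoters, so the proximal promoters of the members were read for both. Both motifs are palindromes, so both strands read the same, and every TCACGTGA also holds a CACGTG. RefSeq promoters of 300 bases (GRCm38.p6, from 250 before to 50 after an annotated start) were found for 36 of the 44 members. CACGTG occurred in 9 of these 36 genes (25.0%): Ctsa, Atg7, Ctsd, Mcoln1, Lamp1, Atg5, Ctsl, Atg14 and Atg3. It occurred in 8.09% of all 27025 genes with such a promoter, and in 7.15% of all 32851 promoters. TCACGTGA occurred in 4 of the 36 (11.1%), Ctsa, Ctsd, Mcoln1 and Atg3, against 1.12% of all genes. A match is a description of the letters and not a binding site. The promoters of the 3 members that passed in zQ175 against WT follow here with that of Lamp1, with every CACGTG in capitals and each written 5' to 3' along the gene. Ctsa, whose other promoter in the table holds no match, is at chr2:164833523-164833822 (plus strand), Ctsd at chr7:142387778-142388077 (minus strand), Lamp1 at chr8:13158911-13159210 (plus strand) and Gabarap at chr11:69991120-69991419 (plus strand).
Ctsa: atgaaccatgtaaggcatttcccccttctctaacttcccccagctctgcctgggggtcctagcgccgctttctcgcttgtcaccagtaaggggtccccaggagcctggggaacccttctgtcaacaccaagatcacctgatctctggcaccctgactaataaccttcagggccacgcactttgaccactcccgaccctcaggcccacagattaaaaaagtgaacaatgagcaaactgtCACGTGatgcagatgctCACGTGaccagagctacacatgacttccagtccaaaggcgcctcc
Ctsd: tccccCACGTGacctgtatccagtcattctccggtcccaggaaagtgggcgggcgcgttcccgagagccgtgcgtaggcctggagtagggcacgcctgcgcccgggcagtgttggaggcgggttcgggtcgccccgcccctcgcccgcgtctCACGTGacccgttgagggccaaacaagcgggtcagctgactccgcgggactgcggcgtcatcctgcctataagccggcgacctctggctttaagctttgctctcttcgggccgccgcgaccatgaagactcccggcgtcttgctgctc
Lamp1: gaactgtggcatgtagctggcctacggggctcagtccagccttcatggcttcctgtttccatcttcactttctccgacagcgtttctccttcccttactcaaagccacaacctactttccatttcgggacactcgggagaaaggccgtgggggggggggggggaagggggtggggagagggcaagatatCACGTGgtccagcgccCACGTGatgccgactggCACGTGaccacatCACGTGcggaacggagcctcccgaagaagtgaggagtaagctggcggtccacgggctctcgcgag
Gabarap: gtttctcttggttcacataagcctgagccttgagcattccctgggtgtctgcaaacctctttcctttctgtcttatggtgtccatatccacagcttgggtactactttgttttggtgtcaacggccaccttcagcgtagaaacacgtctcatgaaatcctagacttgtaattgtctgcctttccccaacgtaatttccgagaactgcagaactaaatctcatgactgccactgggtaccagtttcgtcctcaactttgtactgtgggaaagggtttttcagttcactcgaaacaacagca
The Ctsa motifs begin 12 bases before and 5 bases after the annotated start, those of Ctsd 245 and 98 bases before it, and the 4 of Lamp1 lie within 61 bases before it. The Gabarap window holds none.

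The targeted gene followed the labels. Csnk2a2 lay between 29.4 and 37.5 CPM in the 10 WT and zQ175 mice and between 14.7 and 19.9 CPM in the 8 mice with 1 copy. Markers of striatal projection neurons marked all libraries, with summed levels of 1384 to 5645 CPM, but 6 libraries stood apart by RNA of neighbouring tissue. The 7 choroid plexus markers summed to 984 to 3108 CPM in WT 1, WT 3, CK2a'(+/-) 1 and zQ175:CK2a'(+/-) 2 and to 12.4 to 22.4 CPM in the other 14. Thalamic markers reached 1368 CPM in zQ175 1 and cortical markers 403 CPM in zQ175 5, the highest of the 18 in each case. Only sums above 3 times the median of the 18 were counted as cortical or thalamic RNA. Under that limit, cortical sums of 95.3, 126 and 118 CPM in zQ175 2, 3 and 4 were still above every WT mouse. Thalamic markers were at 679 CPM in CK2a'(+/-) 2, which was kept. The labels do not give the sex of each mouse. The study's methods count 4 females among the WT, 2 among the zQ175, 1 among the CK2a'(+/-) and 4 among the zQ175:CK2a'(+/-) mice. Xist, which is expressed from the inactive X chromosome of females, was at 990.3 CPM or more in 4 of 5 WT, 2 of 5 zQ175, 1 of 3 CK2a'(+/-) and 4 of 5 zQ175:CK2a'(+/-) libraries and at 47.0 CPM or less in the others, so its level was not balanced between the groups. With the Xist level as a covariate, Ctsd, Ctsa and Gabarap did not pass in zQ175 against WT (estimates -0.35, -0.35 and -0.38, FDR 0.12, 0.12 and 0.111) and Ctsz did. The main results are given below with and without the 6 libraries with RNA of neighbouring tissue.

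In WT striatum the members spanned a wide range of levels per kilobase of exon (RPKM), which allows genes to be compared with each other. Psap, the precursor of the saposins that help degrade sphingolipids, was the highest at 209 ± 11.7 RPKM (SD, n = 5), followed by the ATG8 gene Gabarapl1 at 96.5 ± 4.25 RPKM, the lysosomal membrane gene Lamp1 at 77.1 ± 3.88 RPKM, the cathepsin gene Ctss at 61.6 ± 7.79 RPKM and the p62 gene Sqstm1 at 56.4 ± 6.31 RPKM. The means of Ctss, Sqstm1 and Map1lc3a lay within 1 SD of one another. At the other end were the transcription factors, Tfe3 at 2.73 ± 0.230 RPKM and Tfeb at 1.82 ± 0.199 RPKM, with Atg7, the enzyme that activates ATG8 and ATG12 for conjugation, between them at 2.15 ± 0.423 RPKM. Of the 43 members tested, 41 were above the median gene tested, 2.66 RPKM. The coefficient of variation between the 5 WT mice ranged from 1.99% to 19.7% over the members, with a median of 8.98%, against a median of 22.1% over all genes tested. These medians were not taken at matched levels, and most members were above the median gene. Atg2a, 1 of 2 genes for the ATG2 lipid transfer proteins, had 1 count in the 18 libraries together, while Atg2b had 25881.

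**Figure D1:**
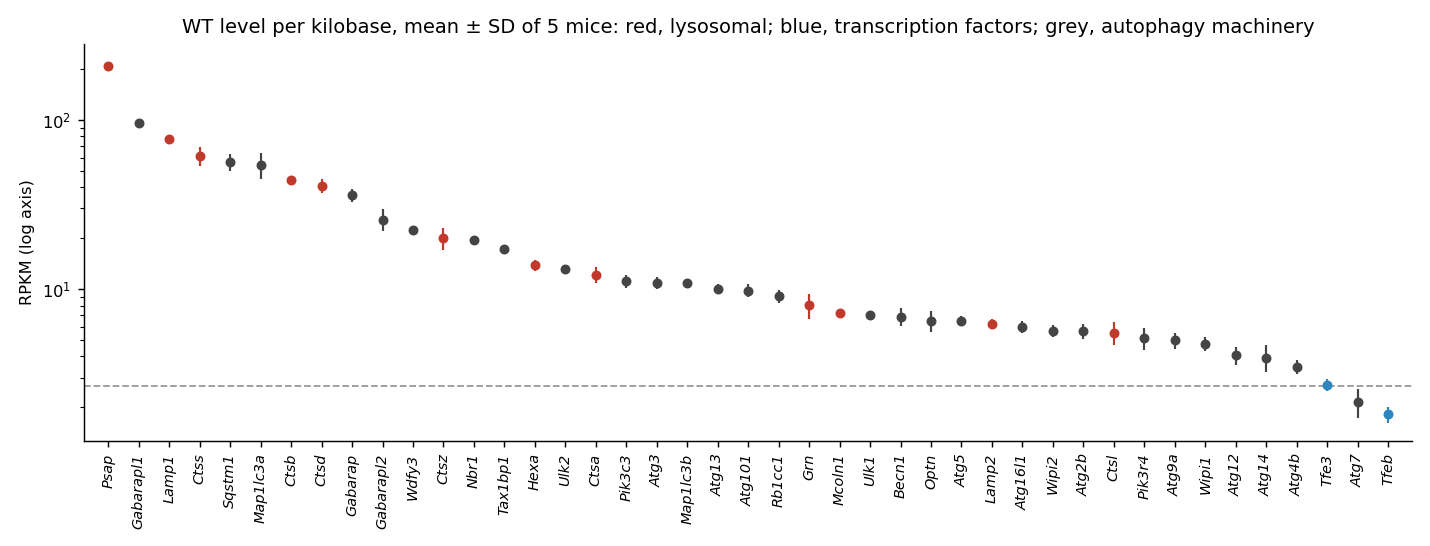
Level of the 43 tested members in WT striatum in RPKM on a log axis, as mean and SD of 5 mice, in descending order. The dashed line is the median of all genes tested, 2.66 RPKM, which Atg7 and Tfeb fall below; Psap leads at 209 RPKM.

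In zQ175 against WT, 3 of 43 members passed and all 3 were lower: the cathepsin D gene Ctsd, the cathepsin A gene Ctsa, and Gabarap, which encodes an ATG8 protein. Over all genes tested 1.1% passed, 0.712% lower and 0.387% higher. At an unadjusted p under 0.05 the members were 12, 10 of them lower, against 13.9% of all genes tested. DESeq2 with default settings called 8 members (Ctsd, Ctsa, Gabarap, Ctsz, Lamp1, Ctsb and Atg101 lower, Rb1cc1 higher), against 5.26% of the genes it tested. The median log2 fold change over the members was -0.050, with 27 of 43 below 0, and that over all genes tested was 0.0042, with 10336 of 20914 below 0. The groups of mice did not overlap for 5 members: Lamp1, Ctsb, Ctsd and Ctsz were lower in every zQ175 mouse than in every WT mouse, as were 1.19% of all genes tested, and Wdfy3 was higher in every zQ175 mouse, as were 1.26%. The 3 calls sit close to the threshold. No member passed with WT 1, WT 3, WT 4, WT 5, zQ175 1, zQ175 3, zQ175 5, zQ175:CK2a'(+/-) 1 or zQ175:CK2a'(+/-) 3 left out, 1 passed without CK2a'(+/-) 1 (Ctsz), CK2a'(+/-) 2 (Gabarap), zQ175:CK2a'(+/-) 4 (Ctsd) or zQ175:CK2a'(+/-) 5 (Ctsz), and 7 passed without WT 2. The estimates moved less, from -0.42 to -0.32 for Ctsd, from -0.45 to -0.33 for Ctsa and from -0.46 to -0.35 for Gabarap. In bulk tissue a lower level may come from fewer cells of a type or from less RNA per cell, and these cannot be told apart.

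**Figure D2:**
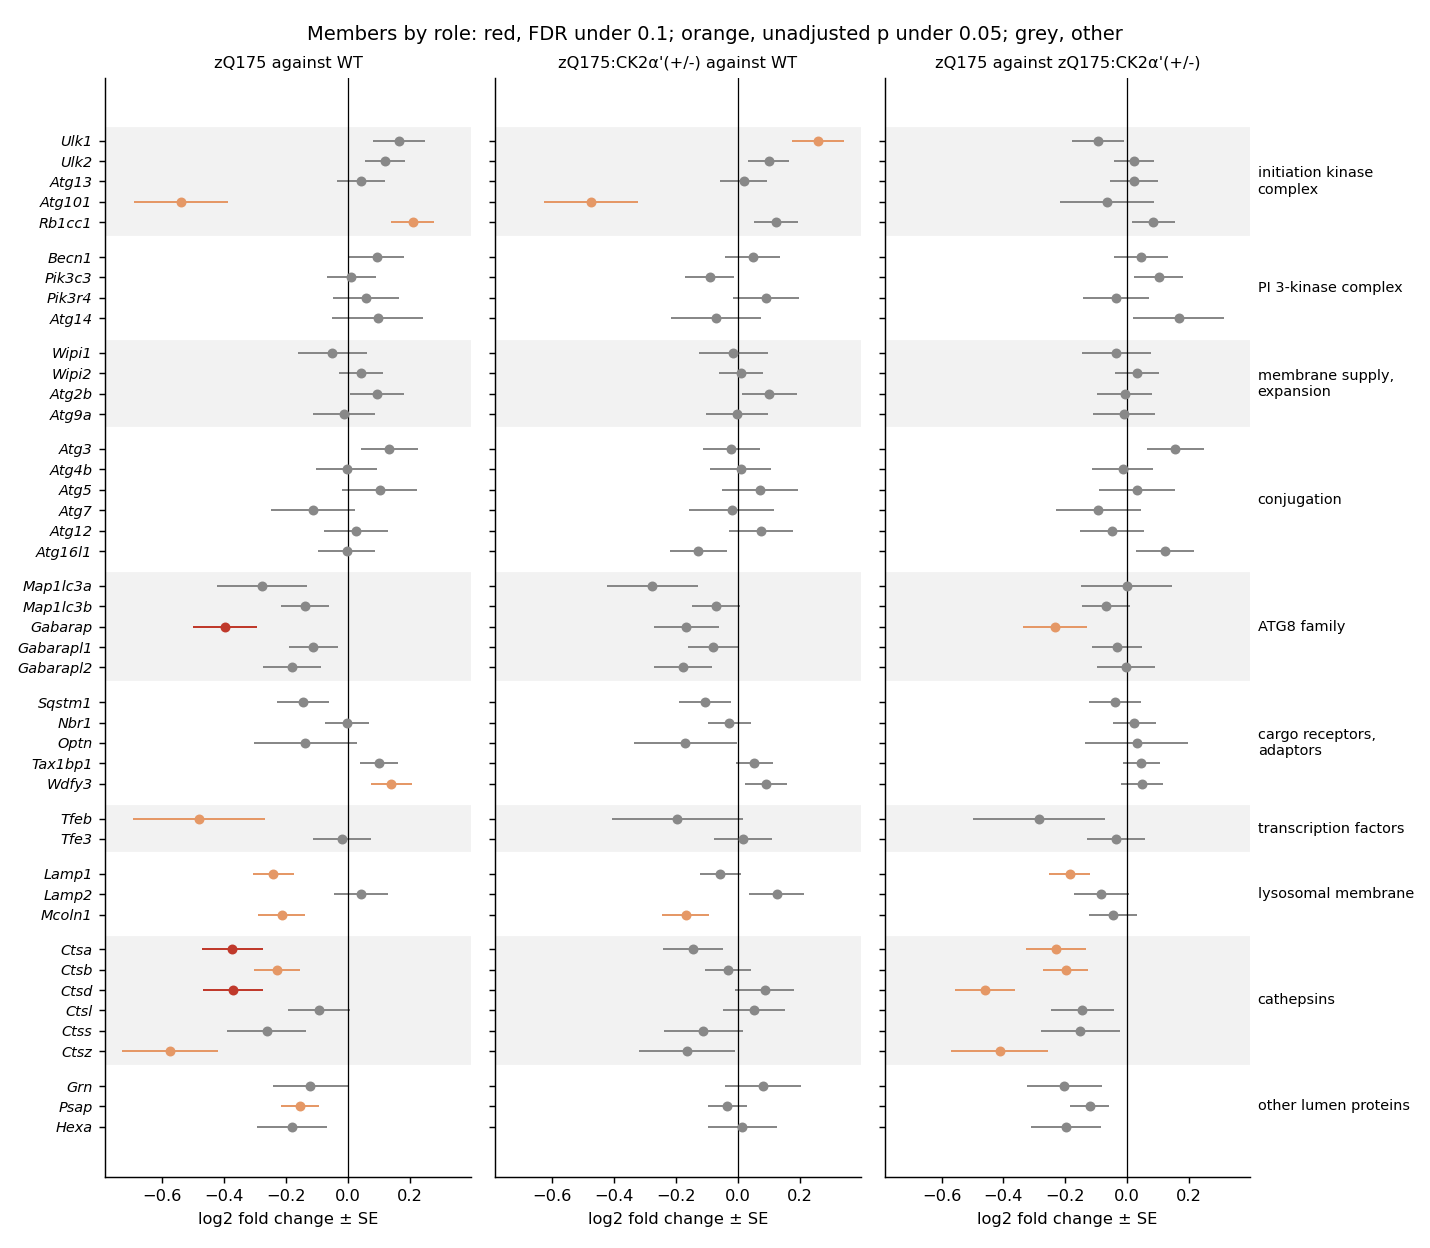
Log2 fold change with its SE for each tested member, grouped by role, in zQ175 against WT, zQ175:CK2a'(+/-) against WT and zQ175 against zQ175:CK2a'(+/-). Red points pass FDR 0.1 (Ctsd, Ctsa and Gabarap, left panel), orange points have an unadjusted p under 0.05, and all 9 lysosomal lumen genes lie below 0 in the left and right panels.

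Of the 9 members of the lysosomal lumen, 6 cathepsins and 3 other proteins, 2 passed in zQ175 against WT. The 9 estimates were below 0, from -0.57 to -0.093 with a median of -0.23. Ctsd, the main aspartyl protease of the lysosome (GRCm38 chromosome 7, 142375911 to 142388038, minus strand), was at 86.9, 86.7, 108, 99.4 and 98.9 CPM in the WT mice and at 73.3, 75.8, 72.9, 79.5 and 69.5 CPM in the zQ175 mice. It was at 88.4, 104 and 98.8 CPM in the CK2a'(+/-) mice and at 93.4, 133, 98.4, 90.3 and 95.3 CPM in the zQ175:CK2a'(+/-) mice. Every zQ175 mouse was below every WT mouse, as for 1.19% of all genes tested, and below every zQ175:CK2a'(+/-) mouse, as for 0.574%. For Ctsd the log2 fold change against WT was -0.37 ± 0.10 (SE), FDR 0.0946. Of its exonic bases 34.4% are shared with another gene model on the same strand, Gm49369, so part of its reads may have been assigned to neither or to both.

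Ctsa, a serine carboxypeptidase that also protects the lysosomal sialidase and galactosidase (GRCm38 chromosome 2, 164832873 to 164841032, plus strand), was at 54.6, 47.6, 60.2, 63.3 and 60.6 CPM in WT and at 43.9, 44.6, 37.6, 47.6 and 47.3 CPM in zQ175 mice. Its level was 51.4, 49.8 and 63.1 CPM in CK2a'(+/-) and 52.9, 60.5, 47.3, 50.5 and 48.2 CPM in zQ175:CK2a'(+/-) mice. The lowest WT mouse, at 47.59 CPM, fell just under the highest zQ175 mouse, at 47.61 CPM, and the zQ175 group was otherwise below WT (log2 fold change -0.37 ± 0.10 (SE), FDR 0.0957). Genes on the other strand, Pltp and Neurl2, share 17.4% of its exonic bases, and whether the counting used strand is not given in the sources used here.

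Ctsz and Ctsb, both chosen for description after their values were seen, missed the FDR threshold, although their groups did not overlap. Ctsz, a carboxypeptidase prominent in microglia, was at 22.7, 28.0, 27.2, 32.6 and 33.1 CPM in WT and 14.9, 18.5, 20.5, 21.8 and 20.8 CPM in zQ175 mice, with the lowest point estimate of all members (-0.57 ± 0.16 (SE), FDR 0.105). Ctsb, a cysteine protease, was at 273, 259, 265, 263 and 268 CPM in WT and 230.4, 243, 198, 246 and 217 CPM in zQ175 mice (-0.23 ± 0.074 (SE), FDR 0.161). The lowest WT mouse was above the highest zQ175 mouse for both genes. Ctsz was at -0.69 without the libraries with choroid plexus RNA, -0.50 without those with cortical or thalamic RNA and -0.62 without both kinds, and Ctsb was at -0.22, -0.22 and -0.20, none passing. Psap was at 578, 522, 591, 567 and 607 CPM in WT, 516, 489.7, 544, 528 and 498 CPM in zQ175, 549, 527 and 552 CPM in CK2a'(+/-) and 556, 602, 557, 562 and 525 CPM in zQ175:CK2a'(+/-) mice. Its WT and zQ175 values overlapped through WT 2 (-0.15 ± 0.062 (SE), FDR 0.271). The remaining lumen genes had log2 fold changes of -0.26 ± 0.13 for Ctss, the cathepsin of antigen-presenting cells, -0.18 ± 0.11 for Hexa, a subunit of hexosaminidase, -0.12 ± 0.12 for the progranulin gene Grn and -0.093 ± 0.10 for the cysteine protease gene Ctsl, none of which passed.

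Without the libraries with choroid plexus RNA the median of the 9 lumen genes was -0.22 and 9 of 9 remained below 0, and the estimates were -0.36 ± 0.082 for Ctsd and -0.37 ± 0.12 for Ctsa. No member passed in that smaller set, in which 1 gene of all passed in place of 230. Without the libraries with cortical or thalamic RNA the median was -0.22, with Ctsd at -0.33 ± 0.11 and Ctsa at -0.40 ± 0.12, and no gene passed at all. Without both kinds, 8 of 9 were below 0, with a median of -0.20.

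**Figure D3:**
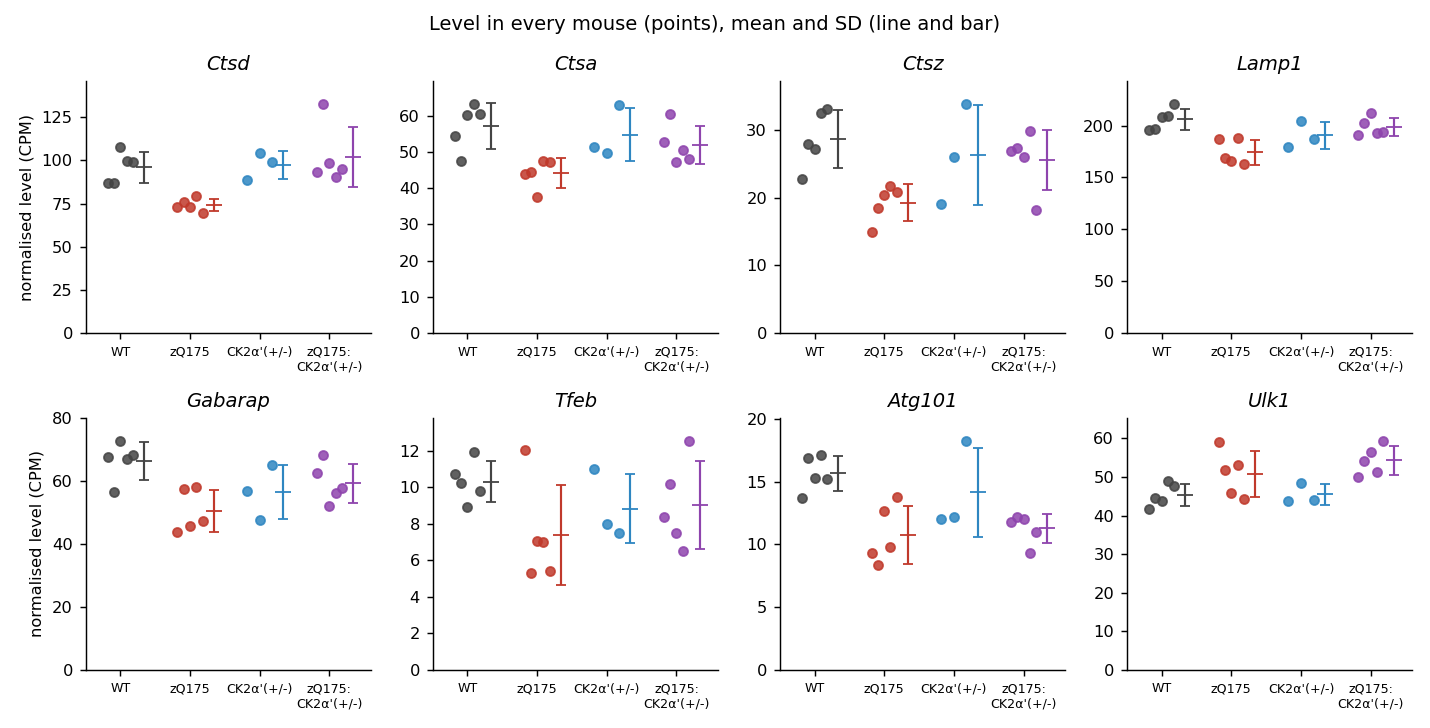
Level in CPM of 8 members in every mouse (points), with the mean and SD of each genotype beside them; axes start at 0. The zQ175 points of Ctsd, Ctsz and Lamp1 lie below all WT points, whereas the zQ175:CK2a'(+/-) points of Ctsd, at 90.3 CPM or more, lie above all zQ175 points.

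Cell type markers moved in the same samples. Of 15 microglial markers tested, 14 had estimates below 0 in zQ175 against WT and 3 passed (C1qa, C1qb and C1qc). Their summed level was 258 to 318 CPM in WT, 197 to 276 CPM in zQ175, 231 to 292 CPM in CK2a'(+/-) and 262 to 291 CPM in zQ175:CK2a'(+/-) mice. Of 10 oligodendrocyte markers, 10 were below 0 and 6 passed, with sums of 5866 to 8067 CPM in WT, 3827 to 5743 CPM in zQ175, 6103 to 7670 CPM in CK2a'(+/-) and 4383 to 5914 CPM in zQ175:CK2a'(+/-) mice. All 12 markers of striatal projection neurons were below 0 and 3 passed, from 2637 to 5567 CPM in WT and 1384 to 2820 CPM in zQ175 mice. All 10 astrocyte markers were below 0 and none passed, with sums of 3321 to 4623 CPM in WT and 3162 to 3731 CPM in zQ175 mice. Cortical excitatory neuron markers went the other way: 6 of 6 tested were above 0 and 1 passed (Tbr1), and their sum was higher in every zQ175 mouse (95.3 to 403 CPM) than in every WT mouse (29.6 to 92.8 CPM). In zQ175 against zQ175:CK2a'(+/-) 13 of 15 microglial markers were below 0 with a median of -0.30, and 10 of 10 oligodendrocyte markers with -0.28, while 6 of 6 cortical markers were above 0 with a median of 1.202, none passing. The cortical sum in zQ175:CK2a'(+/-) mice was 61.4 to 97.7 CPM, below every zQ175 mouse in all but zQ175:CK2a'(+/-) 5, and it was 25.2 to 80.8 CPM in CK2a'(+/-) mice. Projection neuron sums were 2342 to 3313 CPM in zQ175:CK2a'(+/-) and 3924 to 5645 CPM in CK2a'(+/-) mice, and astrocyte sums 3439 to 3771 CPM and 4068 to 4595 CPM. Of 15 microglial markers 8 were below 0 in zQ175:CK2a'(+/-) against WT, with a median of -0.0033. For the mean effect of the zQ175 allele 8 of 12 projection neuron, 5 of 10 oligodendrocyte and 2 of 10 astrocyte markers passed lower. In that comparison 2 of 6 cortical markers (Neurod2 and Nrn1) passed higher, against 4.9% of all genes tested in either direction. In zQ175 against WT, where 1.1% of all genes passed, all 6 thalamic markers were above 0 (median 0.885). All 7 choroid plexus markers were below 0 there (median -2.84), and none of either list passed. No marker of any list was at 0 in every library. Ctss, Ctsz, Ctsd, Grn and Hexa are used by microglia, and Lamp1 and Psap by most cells. The part of these cell types in the results was not tested.

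**Figure D4:**
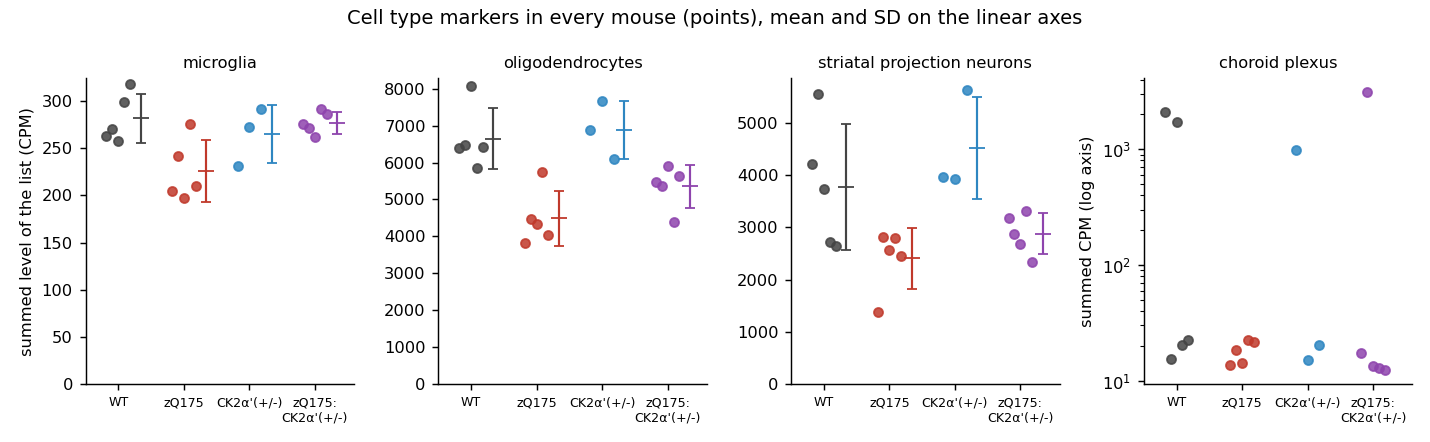
Summed CPM of the markers of 4 cell types or tissues in every mouse (points), with mean and SD on the linear axes; the choroid plexus panel has a log axis. Oligodendrocyte sums are lower in all zQ175 mice (3827 to 5743 CPM) than in all WT mice (5866 to 8067 CPM), and 4 libraries hold choroid plexus RNA at 984 to 3108 CPM.

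None of the 3 lysosomal membrane genes passed in zQ175 against WT. Lamp1, which encodes the most abundant glycoprotein of the lysosomal membrane (GRCm38 chromosome 8, 13159161 to 13175338, plus strand), was at 196, 197, 208, 209 and 221 CPM in WT and 187, 169, 166, 188 and 163 CPM in zQ175 mice. It was at 179.8, 205 and 188 CPM in CK2a'(+/-) and 191, 202, 212, 193 and 194 CPM in zQ175:CK2a'(+/-) mice. The zQ175 mice lay below all WT and all zQ175:CK2a'(+/-) mice, but the change against WT did not pass (-0.24 ± 0.066 (SE), FDR 0.105). It was at -0.26 without the libraries with choroid plexus RNA, -0.24 without those with cortical or thalamic RNA and -0.26 without both kinds, passing in none. Its paralog Lamp2, needed for fusion of autophagosomes with lysosomes, had 0.042 ± 0.088 (SE), FDR 0.877. Mcoln1, a lysosomal calcium channel whose opening activates TFEB, had -0.21 ± 0.077 (SE), FDR 0.205, with levels of 48.3 to 57.7 CPM in WT and 41.5 to 52.9 CPM in zQ175 mice.

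Neither transcription factor passed. Tfeb (GRCm38 chromosome 17, 47737030 to 47792419, plus strand) was at 10.7, 10.2, 8.92, 11.9 and 9.78 CPM in WT and at 12.0, 5.33, 7.07, 6.99 and 5.43 CPM in zQ175 mice. It was at 11.01, 8.01 and 7.47 CPM in CK2a'(+/-) and 8.39, 10.2, 7.47, 6.53 and 12.6 CPM in zQ175:CK2a'(+/-) mice. In zQ175 4 of 5 mice were below every WT mouse, and zQ175 1, which is the library with thalamic RNA, was above them all, giving -0.48 ± 0.21 (SE), FDR 0.32. Without the libraries with cortical or thalamic RNA, zQ175 1 among them, the Tfeb estimate was -0.68 ± 0.21 and did not pass (FDR 0.27). It was -0.53 ± 0.25 without those with choroid plexus RNA and -0.72 ± 0.24 without both kinds. With 1 mouse left out it ranged from -0.74, without zQ175 1, to -0.39, without zQ175 5, and passed in no case. Tfe3 had -0.019 ± 0.094 (SE), FDR 0.954.

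All 5 ATG8 genes had log2 fold changes below 0 in zQ175 against WT, with a median of -0.18, and 1 passed. Gabarap (GRCm38 chromosome 11, 69991143 to 69994951, plus strand), whose protein acts late in autophagosome formation, was at 67.8, 56.5, 72.9, 67.2 and 68.3 CPM in WT and 43.8, 57.4, 45.9, 58.1 and 47.3 CPM in zQ175 mice. It was at 56.8, 47.7 and 65.1 CPM in CK2a'(+/-) and 62.5, 68.2, 52.2, 56.1 and 57.7 CPM in zQ175:CK2a'(+/-) mice. In zQ175, 3 mice were below all WT mice and 2 lay just above WT 2, the lowest WT mouse (log2 fold change -0.40 ± 0.10 (SE), FDR 0.0957). Without the libraries with choroid plexus RNA its estimate was -0.34 ± 0.12, and without those with cortical or thalamic RNA it was -0.31 ± 0.12. Without both kinds it was -0.25 ± 0.13, with an FDR of 0.878, and it passed in none of the 3. Of the others, Map1lc3a had -0.28 ± 0.15, Gabarapl2 -0.18 ± 0.093, Map1lc3b -0.14 ± 0.077 and Gabarapl1 -0.11 ± 0.08. The 5 were again below 0 in zQ175:CK2a'(+/-) against WT, from -0.28 to -0.070 with a median of -0.17, and none passed. These comparisons share the WT mice. The authors removed reads with a mapping quality under 60, so reads that near-identical copies such as pseudogenes share with these short genes may be missing from the counts.

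Both members that passed for the mean effect of the zQ175 allele belong to the initiation kinase complex. Averaged over both CK2a' genotypes, 2 of 43 members passed, both of this complex: Atg101 lower and Ulk1 higher. In that comparison 4.9% of all genes tested passed, 2.78% lower and 2.11% higher of all genes, so the share of members lay near the background. At an unadjusted p under 0.05 the members were 9, against 16.2% of all genes, and DESeq2 called 5 (Atg101, Ulk1, Ctsa, Wdfy3 and Mcoln1) against 8.92%. The median over the members was -0.032, and over all genes tested 0.0057.

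Atg101, which stabilises ATG13 in the complex (GRCm38 chromosome 15, 101284272 to 101290945, plus strand), was at 13.7, 16.9, 15.3, 17.1 and 15.2 CPM in WT and at 9.28, 8.34, 12.7, 9.83 and 13.8 CPM in zQ175 mice. It was at 12.0, 12.2 and 18.3 CPM in CK2a'(+/-) and 11.8, 12.2, 12.1, 9.34 and 10.998 CPM in zQ175:CK2a'(+/-) mice. The mean effect of the zQ175 allele was -0.43 ± 0.12 (SE), FDR 0.0503, with -0.54 ± 0.15 against WT in zQ175 and -0.47 ± 0.15 against WT in zQ175:CK2a'(+/-) mice. All 5 zQ175:CK2a'(+/-) mice were below all WT mice, while zQ175 5, at 13.8 CPM, overlapped WT 1, at 13.7 CPM. The call was lost without CK2a'(+/-) 3, the highest of all 18 mice (FDR 0.225), and without the libraries with choroid plexus RNA, where the estimate was -0.53 ± 0.14 (FDR 0.141). It was also lost without both kinds of libraries with neighbouring tissue (-0.56 ± 0.14, FDR 0.131). Without those with cortical or thalamic RNA alone it was kept (-0.46 ± 0.12, FDR 0.0522).

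Ulk1, the kinase itself (GRCm38 chromosome 5, 110784488 to 110810097, minus strand), was at 41.7, 44.6, 43.7, 49.0 and 47.7 CPM in WT and 59.0, 51.8, 45.8, 53.2 and 44.4 CPM in zQ175 mice. It was at 43.8, 48.5 and 44.05 CPM in CK2a'(+/-) and 49.9, 54.3, 56.5, 51.4 and 59.4 CPM in zQ175:CK2a'(+/-) mice. All zQ175:CK2a'(+/-) mice were above all WT mice, as were 0.937% of all genes tested, whereas the zQ175 mice overlapped WT. The mean effect was 0.21 ± 0.065 (SE), FDR 0.0876, and leaving out 1 mouse at a time it passed in 5 of 18 fits, those without WT 4, WT 5, zQ175 5, zQ175:CK2a'(+/-) 1 or zQ175:CK2a'(+/-) 4, with estimates from 0.18 to 0.24 over the 18. It did not pass without the libraries with choroid plexus RNA (0.17, FDR 0.439), without those with cortical or thalamic RNA (0.20, FDR 0.112) or without both kinds (0.17, FDR 0.476). Rb1cc1, the scaffold FIP200, was at 121, 151, 137, 137 and 125 CPM in WT, 162, 156, 149.8, 147 and 159 CPM in zQ175, 149, 145 and 139.7 CPM in CK2a'(+/-) and 136, 149, 162, 137 and 145 CPM in zQ175:CK2a'(+/-) mice. Its zQ175 values overlapped WT only through WT 2 and did not pass (0.21 ± 0.07 (SE), FDR 0.177). Ulk2 and Atg13 had log2 fold changes of 0.12 ± 0.065 and 0.041 ± 0.077 in zQ175 against WT, so 4 of the 5 genes of this complex had point estimates above 0 and Atg101 alone below.

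In the steps between initiation and the ATG8 proteins no member passed in any comparison. The lipid kinase complex had log2 fold changes in zQ175 against WT from 0.011 to 0.10. Becn1, the Beclin 1 gene, was at 45.8, 57.1, 44.1, 43.9 and 51.9 CPM in WT, 52.0, 47.3, 54.7, 53.7 and 51.3 CPM in zQ175, 49.4, 44.3 and 49.4 CPM in CK2a'(+/-) and 48.9, 48.0, 49.8, 58.8 and 45.6 CPM in zQ175:CK2a'(+/-) mice, all 4 groups overlapping (0.093 ± 0.088 (SE), FDR 0.69). The Becn1 estimate was 0.024 without the libraries with choroid plexus RNA, 0.097 without those with cortical or thalamic RNA and 0.030 without both kinds. Cntd1 on the other strand shares 43.9% of the exonic bases of Becn1. Pik3c3, the lipid kinase VPS34, was at 45.9, 55.9, 46.5, 51.6 and 48.7 CPM in WT, 47.9, 48.6, 53.1, 48.7 and 52.4 CPM in zQ175, 49.1, 50.4 and 52.8 CPM in CK2a'(+/-) and 45.4, 46.7, 51.7, 49.7 and 40.1 CPM in zQ175:CK2a'(+/-) mice (0.011 ± 0.079 (SE), FDR 0.968). These groups overlapped too, and the estimate was -0.055 without the libraries with choroid plexus RNA. Atg14, which directs the complex to autophagy, and Pik3r4, its regulatory subunit, had 0.10 ± 0.15 and 0.057 ± 0.11.

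Membrane supply and expansion ranged from -0.050 to 0.094 in zQ175 against WT. Wipi2, a lipid reader that recruits the conjugation machinery, was at 60.1, 55.9, 64.2, 53.7 and 64.3 CPM in WT, 60.7, 56.4, 65.9, 62.4 and 61.7 CPM in zQ175, 57.7, 52.5 and 60.7 CPM in CK2a'(+/-) and 60.5, 58.2, 60.4, 59.8 and 61.7 CPM in zQ175:CK2a'(+/-) mice (0.042 ± 0.071 (SE), FDR 0.843). Atg2b was at 64.2, 85.4, 78.4, 76.8 and 74.0 CPM in WT, 86.9, 80.5, 73.5, 81.6 and 81.8 CPM in zQ175, 83.3, 83.4 and 69.3 CPM in CK2a'(+/-) and 82.4, 76.7, 74.8, 75.7 and 96.9 CPM in zQ175:CK2a'(+/-) mice (0.094 ± 0.088 (SE), FDR 0.688). Both genes overlapped between all groups. Wipi1 and the scramblase gene Atg9a had -0.05 ± 0.11 and -0.013 ± 0.10.

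The conjugation genes ranged from -0.11 to 0.13, with 3 of 6 below 0. Atg3, the enzyme that hands ATG8 proteins to the membrane lipid, was at 30.6, 33.1, 36.6, 37.8 and 33.7 CPM in WT, 35.4, 36.9, 41.3, 32.4 and 42.4 CPM in zQ175, 30.3, 33.8 and 32.4 CPM in CK2a'(+/-) and 32.9, 34.5, 36.7, 29.2 and 36.1 CPM in zQ175:CK2a'(+/-) mice (0.13 ± 0.092 (SE), FDR 0.557). Its groups overlapped, with zQ175 3 and zQ175 5 above all other mice. Atg5 and Atg12, which are joined to each other, had 0.10 ± 0.12 and 0.025 ± 0.10, their partner Atg16l1 -0.0037 ± 0.093, the protease gene Atg4b -0.0042 ± 0.10 and Atg7 -0.11 ± 0.14.

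Of the cargo receptors and adaptors, Wdfy3, a large scaffold for clearance of aggregated protein, was at 339, 354, 339.9, 354 and 339 CPM in WT and 430.2, 374, 368, 370.0 and 361 CPM in zQ175 mice. It was at 353, 339 and 308 CPM in CK2a'(+/-) and 361, 382, 364, 338 and 394 CPM in zQ175:CK2a'(+/-) mice. All zQ175 mice were above all WT mice, by a margin of 361 against 354 CPM, and the difference did not pass (0.14 ± 0.067 (SE), FDR 0.354). The estimate was 0.092 without zQ175 1, the library with thalamic RNA and the highest of the group, 0.10 without the libraries with cortical or thalamic RNA, 0.12 without those with choroid plexus RNA and 0.088 ± 0.089 without both kinds. Tax1bp1, a ubiquitin-binding receptor, was at 171, 185, 171, 169.8 and 166 CPM in WT, 184, 184, 198, 179 and 179 CPM in zQ175, 181, 168 and 189 CPM in CK2a'(+/-) and 179.8, 174, 187, 185 and 169 CPM in zQ175:CK2a'(+/-) mice (0.10 ± 0.061 (SE), FDR 0.491), its zQ175 mice above all WT mice but WT 2. The p62 gene Sqstm1 had -0.15 ± 0.084, the optineurin gene Optn -0.14 ± 0.17 and the receptor gene Nbr1 -0.0031 ± 0.07.

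In zQ175:CK2a'(+/-) against WT no member passed edgeR or DESeq2, as 0.0143% and 0.725% of all genes did. At an unadjusted p under 0.05 there were 3 members (Atg101, Ulk1 and Mcoln1) against 9.13% of all genes, and the groups did not overlap for Atg101, lower, as for 0.899% of all genes, and Ulk1, higher, as for 0.937%. Without the libraries with choroid plexus RNA the estimates were -0.57 ± 0.19 for Atg101, 0.20 ± 0.11 for Ulk1 and -0.12 ± 0.10 for Mcoln1. In the same order they were -0.47, 0.26 and -0.17 without those with cortical or thalamic RNA and -0.56, 0.21 and -0.12 without both kinds, none passing. Of the 9 lumen genes 5 were below 0, with a median of -0.030. In zQ175 against zQ175:CK2a'(+/-) no member passed with edgeR either, against 0.0143% of all genes. There were 6 members at an unadjusted p under 0.05, all lower in zQ175 (Ctsd, Lamp1, Ctsb, Ctsz, Ctsa and Gabarap), against 6.27% of all genes. All 9 lumen genes and all 3 membrane genes had estimates below 0, with a median of -0.20 for the lumen genes, against 0.0051 over all genes tested. Lamp1 and Ctsd were lower in every zQ175 mouse, without overlap, as were 0.574% of all genes, and no member was higher without overlap, as were 0.564%.

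Ctsd had the smallest p of the members between the 2 zQ175 genotypes, with -0.46 ± 0.10 (SE), FDR 0.222. DESeq2 called it (log2 fold change -0.46, adjusted p 0.0223), as the 1 member among 0.145% of the genes it tested, and so did edgeR without a filter on low counts (FDR 0.027). zQ175:CK2a'(+/-) 2, a library with choroid plexus RNA, was the highest for Ctsd at 133 CPM. Without the libraries of that kind the estimate was -0.35 ± 0.076, with an FDR of 0.501. It was -0.42 ± 0.11 without those with cortical or thalamic RNA and -0.31 ± 0.089 without both kinds, with FDR 0.828 and 0.999. The comparisons of zQ175 with WT and with zQ175:CK2a'(+/-) share the 5 zQ175 mice, so that low values in these mice lower both. Lamp1 had -0.19 ± 0.066, Ctsb -0.20 ± 0.074, Ctsz -0.41 ± 0.16, Ctsa -0.23 ± 0.10 and Gabarap -0.23 ± 0.10 in zQ175 against zQ175:CK2a'(+/-). Gabarap was at -0.18 without the libraries with choroid plexus RNA, -0.14 without those with cortical or thalamic RNA and -0.091 ± 0.13 without both kinds. In the same order Ctsa was at -0.17, -0.26 and -0.20, Ctsz at -0.39, -0.34 and -0.32, Ctsb at -0.20, -0.19 and -0.19 and Lamp1 at -0.18, -0.19 and -0.19. None passed in any of the 3.

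Whether the effect of the zQ175 allele differed with CK2α' was tested by the interaction of the genotypes, positive where the zQ175 effect is higher in the presence of 1 CK2α' copy. No member passed edgeR or DESeq2, as 0.00478% and 0.103% of all genes did. There were 6 members at an unadjusted p under 0.05, all positive, against 5.39% of all genes: Ctsd (0.44 ± 0.15), Gabarap (0.47 ± 0.16), Lamp1 (0.30 ± 0.10), Ctsz (0.54 ± 0.24), Sqstm1 (0.29 ± 0.13) and Psap (0.20 ± 0.10). Without the libraries with choroid plexus RNA none of the 6 had an unadjusted p under 0.05, and the Ctsd estimate was 0.25 ± 0.13. Without those with cortical or thalamic RNA 3 of the 6 did, Ctsd (0.40 ± 0.16), Gabarap (0.38 ± 0.16) and Lamp1 (0.30 ± 0.11), and without both kinds none did, with Ctsd at 0.22 ± 0.14. A difference of the zQ175 effect between CK2α' genotypes was therefore not shown for any member. The 9 lumen genes had interaction estimates above 0, with a median of 0.27.

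Loss of a CK2a' allele alone left the members without a call. In CK2a'(+/-) against WT no member passed edgeR (0.0143% of all genes) or DESeq2 (0.0293%), and 2 had an unadjusted p under 0.05, against 4.48%: Sqstm1 (-0.25 ± 0.10) and Pik3r4 (0.26 ± 0.12). None passed edgeR (0.593%) or DESeq2 (1.47%) in zQ175:CK2a'(+/-) against CK2a'(+/-), and 1 had an unadjusted p under 0.05, against 9.19%, namely Ulk1 (0.26 ± 0.10). Averaged over both zQ175 genotypes, none passed for CK2a' allele loss with edgeR (0.0335%) or DESeq2 (0.0916%), and Ctsd alone had an unadjusted p under 0.05 (0.24 ± 0.073), against 5.31%. The CK2a'(+/-) group holds 3 mice, which limits the comparisons that include it.

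The wider pathway was read from 5 lists of 139 further genes, 134 of them tested. In zQ175 against WT 2 of 134 passed, against 1.1% of all genes tested, and DESeq2 called 7, against 5.26% of the genes it tested. Both shares lay near the background. Npc2, which carries cholesterol out of the lysosome, was at 12.0 to 18.5 CPM in zQ175 and at 20.5 to 22.4 CPM in WT mice (log2 fold change -0.41 ± 0.11, FDR 0.0999). It was lower without overlap, as were 1.19% of all genes tested. Prkaa2, a catalytic subunit of the energy sensor AMPK, was at 35.3 to 49.1 CPM in zQ175 and at 24.5 to 29.4 CPM in WT mice (0.53 ± 0.11, FDR 0.0469). It was higher without overlap, as were 1.26% of all genes tested. Neither passed without the libraries with choroid plexus RNA (-0.42 for Npc2 and 0.49 for Prkaa2, FDR 0.498 and 0.496), without those with cortical or thalamic RNA (-0.33 and 0.43, FDR 0.319 and 0.245) or without both kinds (-0.34 and 0.40, both with an FDR of 0.834). The other lysosomal lumen enzymes and cofactors had 28 of 39 below 0 with a median of -0.092, the other lysosomal membrane proteins 14 of 21 with -0.062, the vacuolar ATPase subunits 11 of 18 with -0.054, the other autophagy machinery 19 of 31 with -0.062 and the mTORC1 and AMPK genes 14 of 25 with -0.013. Estimates below 0 were also frequent without the zQ175 allele. In CK2a'(+/-) against WT, which shares the WT mice, 33 of the 39 other lumen genes were below 0 with a median of -0.12 and 15 of 18 vacuolar ATPase subunits with -0.086, none passing, while of the 9 lumen members 5 were below 0 with a median of -0.065.

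Averaged over both CK2a' genotypes, 4 of the 134 passed with edgeR, against 4.9% of all genes tested, and DESeq2 called 10, against 8.92%. Both shares were below the background. The 4 were Calcoco1, a receptor for selective autophagy (-0.28 ± 0.059, FDR 0.0158), lower, and Ids (0.28 ± 0.063, FDR 0.0212), Arsb (0.26 ± 0.071, FDR 0.0555) and Prkaa2 (0.29 ± 0.082, FDR 0.06), higher. Ids and Arsb are sulfatases that degrade glycosaminoglycans, and both, alone of the 134, also passed in zQ175:CK2a'(+/-) against CK2a'(+/-), where 0.593% of all genes did, with 0.40 ± 0.095 and 0.47 ± 0.11. Arsb lay at 89.2 to 99.8 CPM in zQ175:CK2a'(+/-) and at 66.9 to 71.5 CPM in CK2a'(+/-) mice, but its WT mice spanned 69.3 to 97.4 CPM. For the mean effect of the zQ175 allele, Calcoco1 passed in each of the 3 exclusions of libraries with neighbouring tissue (FDR 0.0204 to 0.0966), Ids only without those with cortical or thalamic RNA (FDR 0.0318), and Arsb and Prkaa2 in none. In zQ175:CK2a'(+/-) against CK2a'(+/-) neither passed without the libraries with choroid plexus RNA (FDR 0.167 for Ids and 0.231 for Arsb), both did without those with cortical or thalamic RNA, and Ids alone without both kinds. In zQ175:CK2a'(+/-) against WT and in zQ175 against zQ175:CK2a'(+/-) none of the 134 passed with edgeR. At an unadjusted p under 0.05 there were 9 and 8 genes, against 9.13% and 6.27% of all genes tested. DESeq2 called none in the first and Npc2 in the second (log2 fold change -0.47, adjusted p 0.0745). The Npc2 levels there were 12.0 to 18.5 CPM in zQ175 and 21.0 to 25.1 CPM in zQ175:CK2a'(+/-) mice. They were lower in zQ175 without overlap, as for 0.574% of all genes tested.

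Fold changes moved with the length of the genes across the whole set. In zQ175 against WT the median log2 fold change of all genes tested was -0.098, -0.057, -0.014, 0.011 and 0.077 in 5 bins of near equal gene number from the shortest to the longest exonic length. The medians in zQ175:CK2a'(+/-) against WT went from -0.097 to 0.040. The shorter members Atg101 (1597 bases), Gabarap (1844 bases), Ctsd (2351 bases) and Lamp1 (2675 bases) lay in bin 2, where 9 members had a median of -0.18, and Ctsa (4715 bases) and Ulk1 (6488 bases) in bin 4. Rb1cc1 (14690 bases) and Wdfy3 (15346 bases) were in bin 5. The part of length in the results was not tested.

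**Figure D5:**
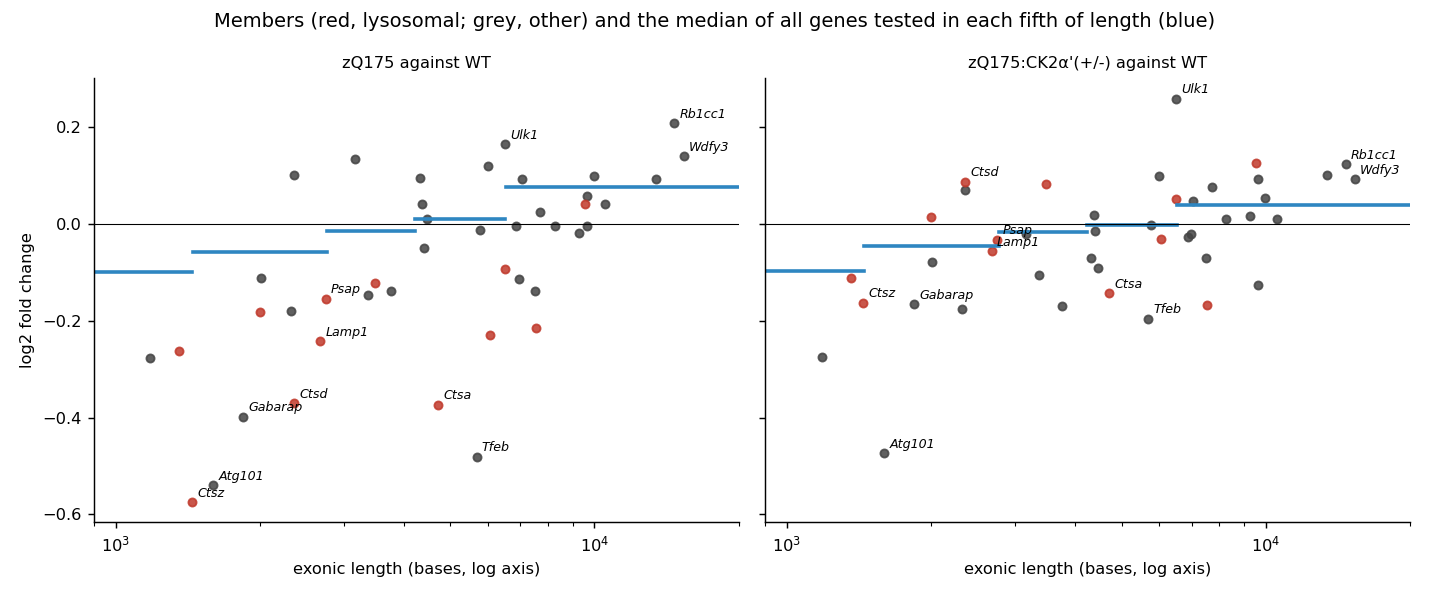
Log2 fold change of the 43 tested members against exonic length on a log axis, in zQ175 against WT (left) and zQ175:CK2a'(+/-) against WT (right). Blue lines give the median of all genes tested in each of 5 bins of length, drawn within the plotted range, from -0.098 to 0.077 on the left; Ctsd, Gabarap, Ctsa, Ctsz and Atg101 lie well below them there.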

How the data were processed

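Striatal RNA of 18 mice was sequenced with a stranded kit. The authors used Trimmomatic for trimming and HISAT2 2.1.0 for alignment to GRCm38, removed duplicated mappings and reads with a mapping quality under 60, and counted reads per gene with Subread 1.6.2, so the deposited values are raw counts. The strand setting of the counting is not given in the sources used here. Groups came from the sample labels. Counts were fitted with edgeR 4.0.16 (R 4.3.3) by its quasi-likelihood test, after filterByExpr and TMM scaling, in 1 model of all 18 libraries with 8 comparisons, with Benjamini-Hochberg adjustment over 20914 genes and a threshold of 0.1. SE was |log2 fold change| divided by the square root of F. The test was checked on simulated data with log2 changes of 1. These are larger than the changes of the members, so the check does not cover changes of that smaller size. DESeq2 1.42.0 and other settings were alternatives. Values in every mouse are given for 16 members: those that passed in any comparison, and the member of each role with the smallest unadjusted p in zQ175 against WT or in zQ175 against zQ175:CK2a'(+/-). Any other was chosen after its values were seen. The members and lists were chosen with earlier results of these data known. Leaving out libraries with RNA of neighbouring tissue was chosen after seeing the data. P-values measure the spread between these mice.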

Additional observations from a re-analysis of the deposited data

Results flagged for a closer look

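In 10 of 129 sets of values, 1 mouse lay far from the others of its group, with a gap above the 95% critical value of Dixon's test, which chance alone exceeds in about 1 of 20 groups. In zQ175:CK2a'(+/-) 2, a library with choroid plexus RNA, Ctsd was at 133 CPM against 90.3 to 98.4 CPM in the other mice of its group, and Lamp2 at 82.7 CPM against 58.6 to 64.2 CPM. In zQ175:CK2a'(+/-) 5 Ctsz was at 18.1 CPM, against 26.1 to 29.8 CPM. In zQ175 1, the library with thalamic RNA, Wdfy3 was at 430.2 CPM against 361 to 374 CPM, and in zQ175 5, with cortical RNA, Map1lc3a was at 33.9 CPM against 55.0 to 61.3 CPM. In zQ175 3 Hexa was at 33.0 CPM against 21.0 to 23.9 CPM and Tax1bp1 at 198 CPM against 179 to 184 CPM, and in zQ175 2 Atg13 was at 40.7 CPM against 45.6 to 47.1 CPM. In WT 2 Tax1bp1 was at 185 CPM against 166 to 171 CPM and Mcoln1 at 48.3 CPM against 55.0 to 57.7 CPM. The part of the neighbouring tissue in these values was not tested.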

How the results depend on the processing

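In zQ175 against WT 3 members passed. DESeq2 gave 8, a robust fit 5, a filter of at least 10 counts in 2 libraries 1 and Xist level as a covariate, standing for sex, 1. Upper-quartile scaling, a fit of only the 2 groups, a threshold of 0.05 and each of the 3 exclusions of libraries with neighbouring tissue gave 0. With 1 mouse left out the count ranged from 0 to 7. In zQ175 against zQ175:CK2a'(+/-) the count was 0, with 1 by DESeq2 and 1 without a filter, and 0 with any 1 mouse left out. For the mean effect of the zQ175 allele it was 2, with 5 by DESeq2, 4 with the Xist covariate, 1 without a filter, and 0 at a threshold of 0.05, without choroid plexus libraries or without all libraries with neighbouring tissue, and from 0 to 3 with 1 mouse left out. Without the libraries with cortical or thalamic RNA it was 2, Atg101 and a member other than Ulk1. Same-numbered mice did not deviate together (correlations -0.136 to 0.120). This gives no sign that the numbers pair the mice, but it cannot exclude a pairing. With a replicate block 0 members passed in zQ175 against WT and 1 for the mean effect of the zQ175 allele. Pik3c3 turned from 0.011 to -0.055 without choroid plexus libraries and to -0.052 without all libraries with neighbouring tissue, where Atg2b was at -0.000845. The cause was not tested. With 1 mouse left out, Pik3c3 ranged from -0.031 to 0.044 in zQ175 against WT, and in zQ175 against zQ175:CK2a'(+/-) Atg101 ranged from -0.17 to 0.014, Atg2b from -0.040 to 0.060 and Wdfy3 from -0.0020 to 0.072. Of the other single-gene values, 368 kept their direction and side of the threshold, 6 gained and 30 lost the call, outside leaving out a mouse. The CK2a'(+/-) group of 3 mice and the small effects limit what could be called.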
